A study of Homo sapiens with 22 samples.

Results

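The 45 genes described here are the human ABC genes of families A to G, chosen by their symbols alone (ABC, a letter from A to G and a number). All 45 are in the gene tables of the 3 single-cell experiments, which list 33538 genes in the first experiment and 36601 in the other two. ABC genes encode proteins that bind and split ATP at a conserved cassette, and most of them use it to move lipids, sterols, peptides, heme or foreign compounds across membranes. Some pump drugs out of cells, and ABCB5 has long been studied in melanoma and pigment cells. Members of families E and F do not transport, and act in ribosome recycling and translation.

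The study asked how melanoma cells switch between a drug-susceptible state and a primed state that tends to survive targeted therapy. WM989 and WM983B are BRAF-mutant human melanoma lines, each used as 1 bottlenecked clone. The first experiment holds 12531 untreated WM989 cells, many with a lineage barcode, in 8 wells of the loading chip (4 in replicate r1, 4 in r2). In each replicate a mixed culture and a culture from an EGFR and NGFR sort were each divided over 2 of these wells, so some wells are technical splits of 1 culture. The labels used here do not name the sort of a well. The second holds 1449 untreated WM983B cells in 1 library, which the source label calls WM983. The third holds 40021 WM989 cells, grown from barcoded cells, in 8 libraries, with 2 libraries each of untreated Control cells and of cells given, for 5 days per the methods, TGFB1 (the growth factor TGF-beta 1), TGFBRi (LY2109761, an inhibitor of the TGF-beta receptors) or PI3Ki (GDC-0941, an inhibitor of PI3 kinase). The sample labels call the 2 libraries of each treatment Mix and Primed, so they may differ in how their cells were sorted. A chromatin experiment holds ATAC-seq of untreated WM989 cells in 4 sorts of 3 libraries, labelled EGFR_High, NGFR-High, EGFR-NGFR-High and Mix. The methods describe the last sort as negative for both markers.

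Libraries held between 35882876 and 177318308 UMIs (unique molecular identifiers, 1 per counted RNA molecule) in the first experiment, 102738398 in the second, and between 70239657 and 122420544 in the third. All 7 melanocytic markers checked, MITF and SOX10 among them, reached 1 CPM in each experiment. Of the leukocyte markers PTPRC and CD3E stayed at or under 0.136 CPM, while CD68 lay between 37.5 and 56.8 CPM. Few cell barcode sequences were shared between libraries (19 of 12512 in the first experiment and 194 of 39827 in the third). CPM, the usual count measure relative to the sequencing total, is taken here on counts summed over cells, and since each UMI tags the 3' end of 1 molecule it carries no scaling by gene length. Intervals are exact 95% intervals and cover counting error only.

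Sequence is shown at 3 places where the results below turn on chromatin or on a change in RNA. The first is the highest ATAC-seq peak in the body of ABCB5, the second the stretch before the start of ABCA9, whose peak was listed in the marker-high sorts only, and the third the promoter of ABCA1, which was higher in primed WM989 cells. Capitals mark the motif CACGTG or, in ABCB5, an overlapping pair of CATGTG matches, 1 on each strand. Basic helix-loop-helix factors such as MITF are known to bind these letters. Sequences are written 5' to 3' on the strand named.
ABCB5 gene-body peak, chr7:20648232-20648531, + strand, hg38, an intron of the gene: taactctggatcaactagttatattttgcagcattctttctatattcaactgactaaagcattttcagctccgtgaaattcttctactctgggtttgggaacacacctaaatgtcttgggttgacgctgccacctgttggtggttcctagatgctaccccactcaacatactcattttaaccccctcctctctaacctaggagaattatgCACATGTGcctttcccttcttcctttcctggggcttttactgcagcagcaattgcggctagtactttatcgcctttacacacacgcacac
ABCA9 upstream of the start, chr17:69060950-69061249, - strand, hg38: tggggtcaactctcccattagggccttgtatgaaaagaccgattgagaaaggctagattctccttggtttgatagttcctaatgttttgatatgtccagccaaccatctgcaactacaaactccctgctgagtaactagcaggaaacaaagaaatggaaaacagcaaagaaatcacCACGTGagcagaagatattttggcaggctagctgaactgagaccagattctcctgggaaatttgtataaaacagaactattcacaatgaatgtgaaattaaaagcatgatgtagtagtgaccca
ABCA1 promoter, chr9:104928156-104928405, - strand, GRCh38.p14 (RefSeq), 250 bases before the start: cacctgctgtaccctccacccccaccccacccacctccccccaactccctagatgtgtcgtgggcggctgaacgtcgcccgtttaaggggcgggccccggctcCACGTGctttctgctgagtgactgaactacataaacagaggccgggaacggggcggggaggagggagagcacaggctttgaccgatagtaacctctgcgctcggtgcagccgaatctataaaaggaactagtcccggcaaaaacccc

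Each of 3 motifs, the E-box forms CACGTG and, apart from it, CATGTG, and the AP-1 motif TGACTCA, was searched on both strands. CATGTG was found in 18.7% of 213225 windows of 300 bases around the peak summits of the first Mix library. CACGTG was found in 8.06% of 20007 windows of 300 bases before protein-coding gene starts. Of 35093 RefSeq promoters 6.34% held CACGTG, and 8 of the 35 members with an entry did (ABCA1, ABCA9, ABCA12, ABCB6, ABCB9, ABCC10, ABCF1 and ABCG2). CATGTG was found in 9.42% of these promoters and in 3 of the 35, and TGACTCA in 4.20% and in ABCD2 alone. The shares are of promoter entries, while a member was counted if any of its entries held the motif. A gene can have several entries, so these counts and shares are not comparable and nothing is read from them. These are matches of letters and not measured binding. In hg38 (GENCODE 44) ABCB5 lies at chr7:20615667-20777038 on the + strand, ABCA1 at chr9:104781006-104928155 (-), ABCG2 at chr4:88090150-88231628 (-) and ABCG5 at chr2:43812472-43838865 (-).

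Across all cells of an experiment, the genes that do not transport held more of the ABC RNA than any other role group. ABCE1, which splits ribosomes for recycling, was the highest member in all 3 experiments (87.2 CPM in the first, 136 in WM983B and 91.4 in the treatment experiment). ABCF1, a factor of translation initiation, came next (84.4, 134 and 89.5 CPM in the same order). At least 1 CPM was reached by 21 of the 45 members in the first experiment, by 28 in WM983B and by 23 in the treatment experiment. The 4 genes of families E and F summed to 183 of the 364 CPM of all 45 members in the first experiment. In WM983B they summed to 395 of 784 CPM and in the treatment experiment to 281 of 470. The 12 efflux genes summed to 47.4 CPM in the first experiment. ABCC8 and ABCC9, regulators of potassium channels, stayed at or under 0.0389 CPM throughout. ABCC12 had no UMI in WM983B, where a floor of 3 counts is 0.0292 CPM and the exact upper limit was 0.0359 CPM.

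**Figure D1:**
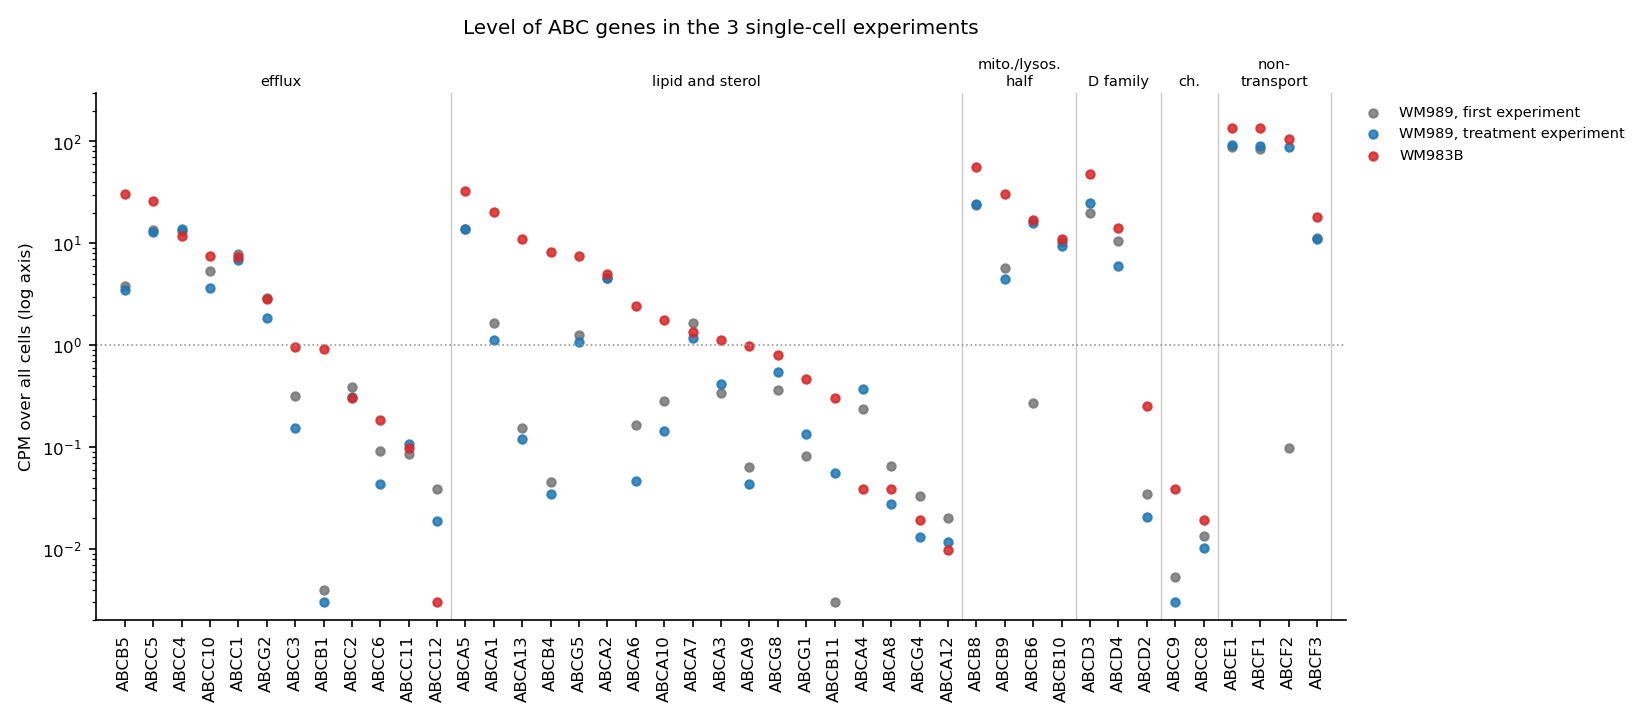
Level of ABC genes over all cells of an experiment, in CPM on a log axis, grouped by role (ch., channel regulators). Points are sums over all cells without replicate error, the dotted line marks 1 CPM, and levels under the axis range, ABCC12 in WM983B among them, are drawn at its lower edge. ABCE1 and ABCF1 lead in all 3 experiments, and ABCB4, ABCA13 and ABCA1 are far higher in WM983B than in WM989.

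Among the efflux genes, ABCC5 (an exporter of cyclic nucleotides) had 13.4, 25.8 and 13.0 CPM in the first, WM983B and treatment experiments. ABCC4, which exports cyclic nucleotides and prostaglandins, had 13.1, 11.8 and 13.9 CPM. ABCB1, the classic multidrug pump P-glycoprotein, was barely present in WM989, with 0.00400 CPM in the first experiment and 0.00146 CPM in the treatment experiment. In WM983B it had 95 UMIs, or 0.925 CPM. The other efflux genes over 1 CPM in every experiment were ABCC1, ABCC10, ABCB5 and ABCG2.

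The lines differed in several members. Between WM983B and the WM989 cells of the treatment experiment, which share a gene table, 13 of 28 members with at least 1 CPM in either were over 2-fold higher in WM983B, against 26.9% of 14150 genes. None was over 2-fold lower. The median ratio of the members was 1.94 and that of all genes 1.36. ABCB4, a phospholipid pump of bile, had 8.23 CPM in WM983B and 0.0350 in WM989, where no library exceeded 0.0943. ABCA13, a large lipid transporter, had 11.03 and 0.121 CPM, and ABCA1, the exporter of cholesterol to apolipoproteins, had 20.3 and 1.11. ABCB5 had 30.3 CPM in WM983B and between 1.36 and 6.73 in the 8 WM989 libraries. ABCB9, a lysosomal peptide transporter, had 30.2 CPM against 3.57 to 5.19, and ABCG5, which forms a sterol pump with ABCG8, had 7.53 CPM against 0.613 to 1.51. WM983B lay above all 8 WM989 libraries in 22 of these 28 members, and in 31 of all 45. The share of all genes that did so was not counted, so nothing about the members is read from these counts. With 1 WM983B library there was no test, and line and experiment cannot be told apart.

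Of the members that differed between the WM989 experiments, ABCF2 had 0.0986 CPM in the first and 88.6 in the treatment experiment, and ABCB6, a heme and porphyrin transporter, 0.270 and 15.9. These were the only members with at least 1 CPM in the treatment experiment that were over 3-fold higher there. The gene tables of these experiments differ in 1623 symbols present only in the first and 4686 only in the third, so levels of these genes are compared within an experiment only. What part the gene tables have in them was not tested.

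In WM989 the primed state had more ABCG2 and ABCA1 RNA and less ABCB5 and ABCG5 RNA than the drug-susceptible state. The authors' clusters 2, 8 and 9 of the first experiment are primed (2843 cells) and the other 8 drug-susceptible (9688 cells). Since the authors called the states on the same cells and the 8 wells belong to 1 sample, ratios are given without a test. Of 21 members with at least 1 CPM in either state, 2 were over 2-fold higher in primed cells, against 13.7% of 13194 genes, and 2 were over 2-fold lower, against 7.91%. Both counts are near what these shares of all genes would give.

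ABCG2, the breast cancer resistance protein, which exports drugs, urate and porphyrins, lay between 4.28 and 10.5 CPM (median 6.09) in the primed cells of the 8 wells. In drug-susceptible cells of the same wells it lay between 1.02 and 2.04 CPM (median 1.79). Primed cells were higher in 8 of 8 wells, which stand for fewer cultures, and the groups did not overlap. Over all cells the ratio was 5.21 (interval 4.77 to 5.69), with 4.53 in r1 and 5.20 in r2.

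ABCA1 lay between 2.65 and 6.13 CPM (median 3.49) in primed cells and between 0.202 and 1.60 (median 0.818) in drug-susceptible cells. It too was higher in 8 of 8 wells with no overlap. Its ratio was 5.58 (4.96 to 6.29), with 8.39 in r1 and 3.97 in r2.

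ABCB5 lay between 0.431 and 2.51 CPM (median 1.62) in primed cells and between 2.60 and 6.27 (median 4.48) in drug-susceptible cells, lower in 8 of 8 wells and without overlap. The ratio was 0.258 (0.225 to 0.295). Within r1 it was 0.413 and within r2 0.116, so the replicates differed in size and not in direction. ABCG5 had 14 UMIs in all primed cells (0.0729 CPM) and 930 in drug-susceptible cells (1.67 CPM), a ratio of 0.0438 (0.0238 to 0.0738), with 0.0582 in r1 and 0.0278 in r2. Its highest primed well, at 0.335 CPM, lay under its lowest drug-susceptible value of 0.801. Its partner ABCG8 had 0.385 CPM in primed and 0.358 in drug-susceptible cells over all wells, and was lower in primed cells of 7 of 8 wells with overlap.

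**Figure D2:**
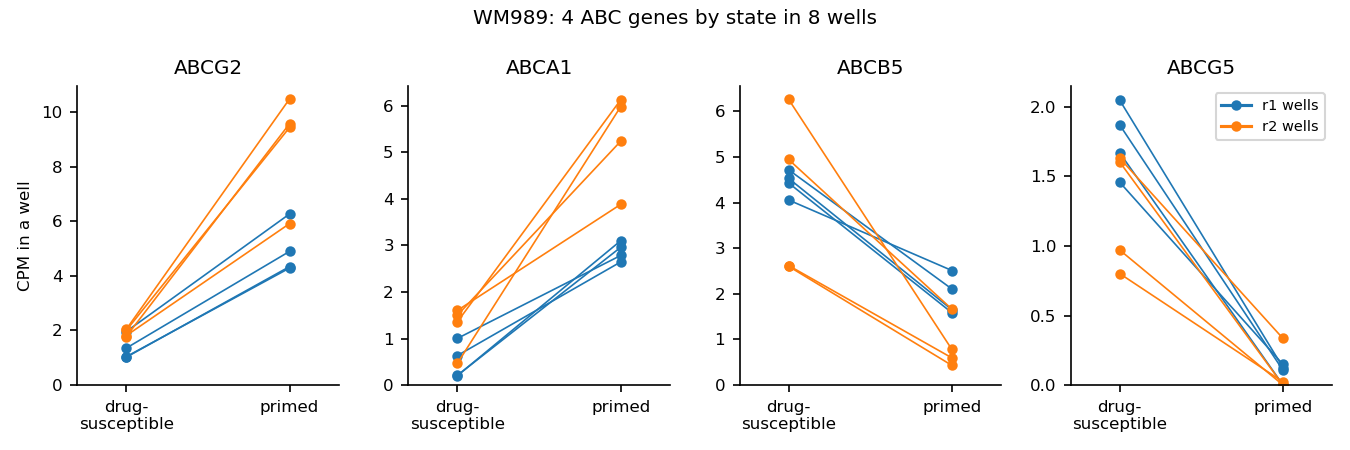
CPM of ABCG2, ABCA1, ABCB5 and ABCG5 in drug-susceptible and primed cells of the 8 WM989 wells of the first experiment, 1 line per well, with r1 wells in blue and r2 wells in orange. Every line rises for ABCG2 and ABCA1 and falls for ABCB5 and ABCG5, and in no panel do the states overlap.

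Other differences ran the same way in every well. ABCB10, a mitochondrial transporter of heme synthesis, was lower in primed cells of 8 of 8 wells, with a ratio of 0.517 over all cells, just short of 2-fold. It was past 2-fold within r1 (0.441), within r2 (0.495) and by the mean of the 8 wells. ABCA5, a lysosomal lipid transporter, had a ratio of 0.626 and ABCC5 one of 0.700, both lower in 8 of 8 wells with no overlap. ABCE1 (0.771) and ABCF1 (0.836) were lower in 8 of 8 wells as well, with overlap of the groups. So was ABCC1, with ratios of 0.723 within r1 and 0.756 within r2. Under 1 CPM, ABCA3, the lamellar body lipid transporter, was higher in primed cells of 8 of 8 wells (median 0.625 against 0.161 CPM). ABCA6 was too (0.337 against 0.0568 CPM), with overlap. The share of all genes that ran 1 way in 8 of 8 wells, or did not overlap, was not counted. Nothing about the members as a set is read from these wells. The median log2 ratio of the 21 members was -0.19 and that of all genes 0.07. With libraries scaled by TMM, which corrects for composition, these medians became -0.37 and -0.11 and ABCB10 passed the 2-fold limit, while the 4 members named first did not change side.

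The treatment experiment gave a second view of the states, in its clusters 4 and 10 against the rest. Of its 4077 primed cells 3334 came from the 2 TGFB1 libraries, so over all libraries state and treatment are mixed. Values are therefore given within treatments or without TGFB1, divisions chosen after the values were seen. ABCG2 was higher in primed cells of 8 of 8 libraries. Its ratio was 3.46 without TGFB1 (2.61 to 4.51) and 1.27 within TGFB1 (0.991 to 1.63). In the Control libraries alone it was 2.06 (1.109 to 3.51), from 14 primed UMIs, so the inhibitor libraries raise the value without TGFB1.

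ABCA1 was higher in primed cells of 7 of 8 libraries, with ratios of 3.01 without TGFB1 (1.98 to 4.40) and 2.56 within TGFB1 (1.97 to 3.33). In Control alone it was 2.24, from 8 primed UMIs, with an interval of 0.9502 to 4.54 that includes 1. ABCG5 was lower in 8 of 8, with 2 UMIs in the primed cells without TGFB1 (ratio 0.171, 0.0206 to 0.619) and 2 within TGFB1 (0.0519, 0.00621 to 0.192). ABCB5 was lower in primed cells of 6 of 8 libraries, and its ratio is given by treatment, with no test between treatments. It was 0.251 within TGFB1 (0.158 to 0.382) and 0.541 within TGFBRi (0.302 to 0.897, from 15 primed UMIs), both below 1 beyond counting error. It was 0.678 within Control (0.308 to 1.297, from 9 primed UMIs) and 2.21 within PI3Ki (0.882 to 4.58, from 7), and both of these intervals include 1. Pooled without TGFB1 the ratio was 0.811 (0.550 to 1.15). ABCA4, a retinoid transporter of photoreceptors, had 1 UMI in the primed cells without TGFB1 and a ratio of 2.03 within TGFB1 (1.46 to 2.81), where that of ABCA3 was 5.11 (3.42 to 7.73). ABCA3 was higher in primed cells of 6 of 8 libraries, and in Control alone its ratio of 3.85 (1.001 to 10.6) rested on 4 primed UMIs. The primed cells per library ranged from 25 to 1757, so the values of a library with few of them rest on few UMIs. The primed clusters differed from each other, with 0.455 CPM of ABCB5 in cluster 4 (0.274 to 0.710) and 3.49 in cluster 10 (2.45 to 4.83).

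In WM983B ABCB5 marked cluster 1, as the choice of these genes already names, and its level is given as a description. It had 57.2 CPM in cluster 1 (55.1 to 59.5), 21.4 in cluster 3 (18.2 to 24.96), 7.13 in cluster 2 (5.22 to 9.51) and 5.99 in cluster 0 (5.28 to 6.78). Clusters 0 and 2, the primed ones, did not differ beyond their intervals. Clusters 1 and 3 are drug-susceptible. Against all other cells cluster 1 was 7.01-fold higher (6.34 to 7.75), and against drug-susceptible cells the primed state had a ratio of 0.118 (0.104 to 0.132). Cluster 1 holds 628 of the 718 drug-susceptible cells, so the choice of these genes fixed this ratio too and nothing is read from it.

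Within cluster 1 ABCB5 was uneven. Of its 628 cells 68.9% had at least 1 ABCB5 UMI (65.2 to 72.6%), at a median depth of 70605.5 UMIs, and 209 had 5 or more. The tenth of these cells with the most UMIs held 42.6% of them, and 1 cell had 68. In cluster 3 the share of cells was no lower, at 75.6% (65.4 to 84.0%) and a median depth of 84240 UMIs, but only 5 of 90 cells had 5 or more UMIs. With each cell thinned to 30000 UMIs and none left out, the shares were 54.4% in cluster 1, 45.2% in cluster 3, 15.4% in cluster 2 and 10.8% in cluster 0. No cell type that lacks ABCB5 was in these cultures, so the share that free RNA gives was not measured.

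In WM989 no cluster reached the ABCB5 level of WM983B cluster 1. Cluster 10 of the first experiment was the highest with 12.1 CPM (10.7 to 13.6), followed by clusters 3 (6.07) and 7 (5.77), whose intervals overlapped. The lowest was the primed cluster 9 with 0.742 CPM (0.520 to 1.03), next to cluster 2 at 1.14, and these intervals overlapped as well. In the treatment experiment clusters spanned 0.455 CPM (cluster 4) to 7.91 CPM (cluster 12, with 114 cells and an interval of 4.52 to 12.8).

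**Figure D3:**
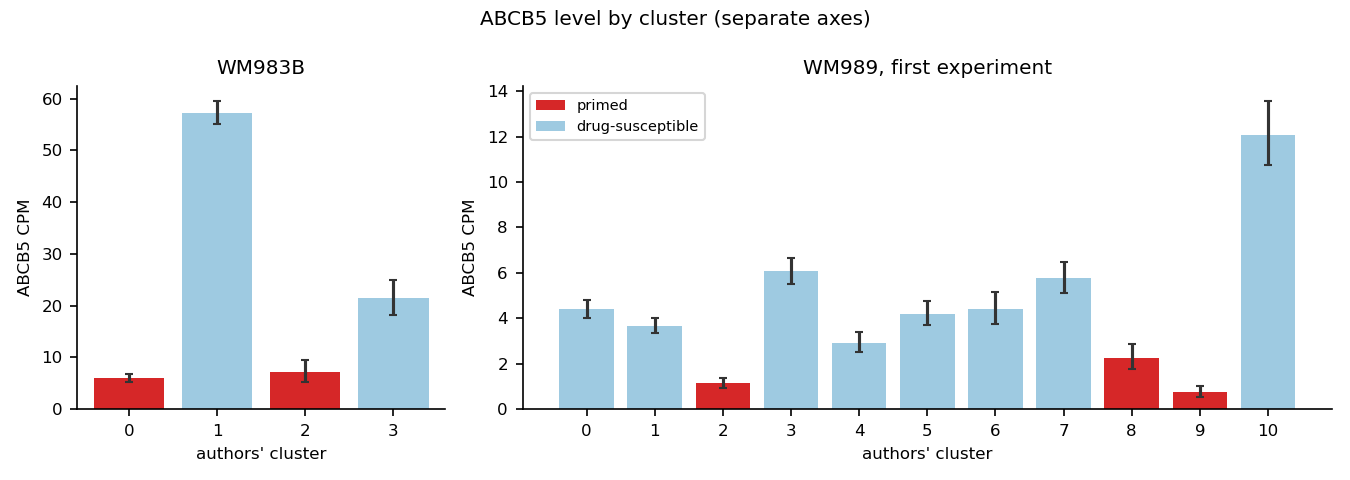
ABCB5 CPM by the authors' cluster in WM983B (4 clusters) and in the first WM989 experiment (11 clusters), on separate axes that start at 0. Bars are sums over the cells of a cluster, red for primed and blue for drug-susceptible clusters, and error bars are exact 95% Poisson intervals. ABCB5 peaks in WM983B cluster 1 at 57.2 CPM and in WM989 cluster 10 at 12.1 CPM, and the primed clusters are the lowest of each panel.

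The genes most like ABCB5 over these 15 clusters were SMIM25, RNF175, DUSP3, CA14 and ZNF703. Pearson's r of their log2(CPM + 1), centred within each line, was 0.94, 0.93, 0.93, 0.91 and 0.90 among 11566 genes compared. The clusters share libraries and were called from the same counts, so these values are a description. In WM983B cluster 1 CA14, a membrane carbonic anhydrase, had 10.1 CPM against 1.58 in cluster 0, and DUSP3, a phosphatase, had 40.6 against 24.8.

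Other members differed between the WM983B states. Of 31 with at least 1 CPM in either state, 2 were over 2-fold higher in primed cells, against 2.87% of 13769 genes, and 2 were over 2-fold lower, against 1.37%. Of the lower ones, ABCB5 was there by the choice of these genes, so nothing is read from that count. ABCC3, an exporter of conjugated bile salts and glucuronides, had 1.64 CPM in primed and 0.334 in drug-susceptible cells, a ratio of 4.91 (2.92 to 8.70) that rests on 80 and 18 UMIs. ABCA3 had 1.56 and 0.723 CPM, a ratio of 2.15 (1.44 to 3.25). ABCG5 had 4.48 and 10.3 CPM, a ratio of 0.436 (0.371 to 0.510). By cluster it had 3.52 CPM in primed cluster 0 (2.97 to 4.13) and 10.9 in primed cluster 2 (8.46 to 13.7). Drug-susceptible clusters 1 and 3 had 10.9 and 6.68 CPM, so the lower primed level is that of cluster 0 and not of cluster 2. Between cluster 1 and the rest, 2 of 32 members were over 2-fold higher, against 1.4% of 13743 genes. These were ABCB5, which was already known to mark this cluster so that nothing is read from the count, and ABCG5, with 10.9 and 4.78 CPM. Cluster 2 was level with cluster 1 in ABCG5, at 10.9 CPM in each, so ABCG5 does not set cluster 1 apart from it. ABCA3 and ABCC3 were the 2 over 2-fold lower, against 3.33%. Cluster 1 holds most drug-susceptible cells, so both comparisons rest largely on the same cells. ABCA1 had a ratio of 1.61 between the states (25.4 and 15.7 CPM), under the limit, and ABCG2 one of 0.851 (0.671 to 1.078).

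TGFB1 moved 10 of the 32 members that could be tested over all cells of the treatment experiment. By edgeR's quasi-likelihood test with Benjamini-Hochberg adjustment over 18389 genes, 4 rose, against 16.3% of all genes, and 6 fell, against 12.7%, so the members' share was near that of all genes. The other 13 members were too low to be tested. All comparisons share the 2 Control libraries. No library of a called member overlapped the Control libraries, which follows closely from passing this test and adds no support. The p-values measure the spread between libraries, which were parallel cultures from 2 wells. The sample labels call the 2 libraries of a treatment Mix and Primed while the cell table has r1 and r2. The sources used here do not match these names, so the replicates may differ in how their cells were sorted. Over all cells the values also move with the share of primed cells, which was 2.26 and 4.47% in Control, 29.1 and 31.3% in TGFB1, 2.26 and 4.32% in TGFBRi and 0.647 and 1.21% in PI3Ki, and in such sums more cells of a state and more RNA per cell cannot be told apart. The 6 primed markers summed to 121 and 205 CPM in Control and to 2766 and 2946 CPM in TGFB1, and the 7 melanocytic markers to 4558 and 4512 against 3009 and 3241. Genes listed as markers of other cell types moved too. The 2 endothelial markers summed to 0.371 and 0.361 CPM in Control and 3.23 and 2.33 in TGFB1, and the 4 fibroblast markers to 30.4 and 31.0 against 44.7 and 41.2. PECAM1 (log2 fold change 3.02) and PDGFRB (3.95) were the ones called by edgeR, and no leukocyte or keratinocyte marker was. In untreated WM989 cells of the first experiment PECAM1 had 22.8 CPM in primed and 0.183 in drug-susceptible cells, and PDGFRB 13.5 and 0.910. Of the 4 fibroblast markers 3 were higher in primed cells there, and LUM was lower (16.9 and 32.2). CDH5, the other endothelial marker, stayed at or under 0.0219 CPM in every experiment. What part the states have in the members' values was not tested.

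Among the 9 efflux genes tested only ABCB5 passed in either direction. It had 3.06 and 3.81 CPM in the Control libraries, 1.36 and 2.24 in TGFB1, 5.33 and 6.73 in TGFBRi and 2.04 and 2.86 in PI3Ki. TGFB1 and PI3Ki libraries lay below and TGFBRi libraries above both Control libraries. By edgeR its log2 fold change was -0.96 in TGFB1 (SE 0.12, adjusted p = 2.58e-06), 0.83 in TGFBRi (SE 0.11, adjusted p = 4.32e-05) and -0.38 in PI3Ki (SE 0.12, adjusted p = 0.0315). The changes in TGFB1 and in TGFBRi held when any single library was left out, but without the replicate term the TGFBRi call was lost (edgeR adjusted p = 0.207). The call in PI3Ki was lost without any single library of that comparison, with edgeR adjusted p between 0.0777 (without Control r2) and 0.246 (without Control r1), and was also lost with DESeq2, without the replicate term and with G1 cells only. ABCG2, the efflux gene that was higher in primed cells, did not pass in TGFB1, with 1.959 and 1.695 CPM in Control and 1.95 and 1.85 in TGFB1 (log2 fold change 0.04, SE 0.13).

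Of the lipid and sterol transporters 11 of 18 were tested, and in TGFB1 3 rose and 2 fell, beside the 16.3% and 12.7% of all genes. ABCA4 had 0.243 and 0.237 CPM in Control and 0.901 and 1.06 in TGFB1, the largest rise among the members (log2 fold change 2.01, SE 0.26, edgeR adjusted p = 2.90e-06). ABCA3 had 0.307 and 0.274 CPM in Control and 0.688 and 0.660 in TGFB1 (log2 fold change 1.19, SE 0.26, edgeR adjusted p = 0.00117). Both stayed near or under 1 CPM. ABCA1 had 0.896 and 1.02 CPM in Control and 1.41 and 1.497 in TGFB1 (log2 fold change 0.59, SE 0.16, edgeR adjusted p = 0.00909). Its call was lost without Control r1, Control r2 or TGFB1 r1, with edgeR adjusted p of 0.0862, 0.0530 and 0.0737, and also with DESeq2 (adjusted p = 0.123) and with equal cell numbers (edgeR adjusted p = 0.0846).

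ABCA5 had 13.9 and 13.9 CPM in Control and 10.4 and 11.2 in TGFB1, a log2 fold change of -0.38 (SE 0.080, edgeR adjusted p = 0.000805) that held without any 1 library. ABCG5 had 1.15 and 0.997 CPM in Control and 0.613 and 0.755 in TGFB1 (log2 fold change -0.67, SE 0.19, edgeR adjusted p = 0.0110). Its edgeR adjusted p became 0.241 without Control r1 and 0.0970 without TGFB1 r1, and with DESeq2 the adjusted p was 0.0881.

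Among the B family transporters of mitochondria and lysosomes ABCB10 and ABCB6 fell in TGFB1. ABCB10 had 10.2 and 10.9 CPM in Control and 8.34 and 8.43 in TGFB1 (log2 fold change -0.35, SE 0.082, edgeR adjusted p = 0.00239). ABCB6 had 15.9 and 15.9 CPM in Control and 14.02 and 12.80 in TGFB1 (-0.26, SE 0.072, edgeR adjusted p = 0.00778). Both changes were small, and each lost its call without some library. The adjusted p was 0.0958 for ABCB10 without Control r2. For ABCB6 it was 0.196 without Control r2 and 0.0861 without TGFB1 r2, and the call was also lost without the replicate term (edgeR adjusted p = 0.0876) and with G1 cells only (0.0793).

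In TGFBRi 2 of 32 members were called, ABCB5 among them, against 2.53% of all genes, and in PI3Ki ABCB5 was the only one, against 12.7%. ABCB5 moved in TGFBRi against its direction in TGFB1. Both contrasts use the same Control libraries and the difference between them was not tested.

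**Figure D4:**
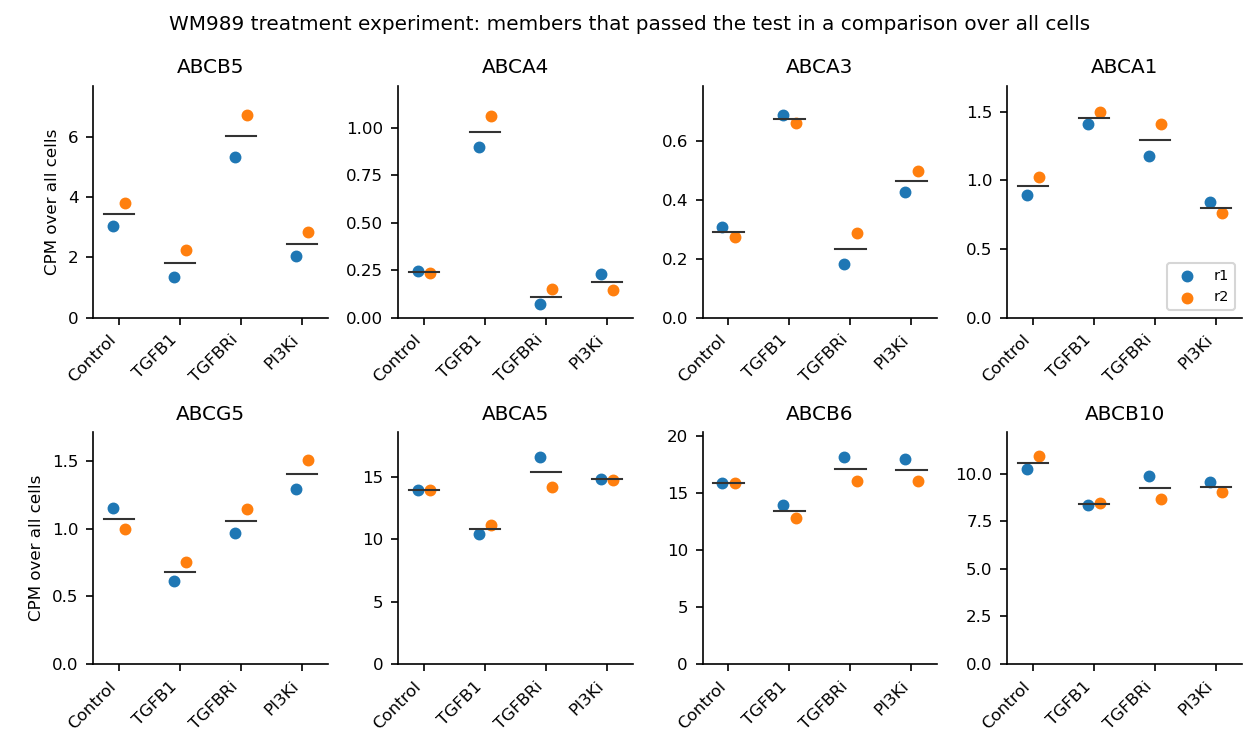
CPM over all cells of 8 of the 10 members that passed the edgeR test in at least 1 treatment of WM989, in the 2 libraries of each treatment (r1 blue, r2 orange), with lines at the mean of 2 libraries and axes that start at 0. ABCB5 is lowest in TGFB1 and highest in TGFBRi, and ABCA4 and ABCA3 are highest in TGFB1.

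With drug-susceptible cells alone, ABCB5 kept its direction in every treatment. In TGFB1 5 of 32 members were called by edgeR, against 14.9% of 17914 genes. ABCB5 had 3.06 and 3.87 CPM in drug-susceptible Control cells and 1.66 and 2.82 in TGFB1 (log2 fold change -0.66, SE 0.13, edgeR adjusted p = 0.000643). ABCA4 rose as well (1.67, SE 0.29, edgeR adjusted p = 0.000189). ABCA1 (0.14, SE 0.18) and ABCA3 (0.25, SE 0.32) did not pass, and whether they differ from their changes over all cells was not tested. Outside cluster 3, a drug-susceptible cluster with 1.70 CPM of ABCB5, the fall of ABCB5 in TGFB1 was smaller (-0.39) and did not pass (edgeR adjusted p = 0.0692), and the call was also lost without the replicate term (edgeR adjusted p = 0.137). ABCC4 (0.23, SE 0.077, edgeR adjusted p = 0.0460) was called just inside the limit. It lost its call without Control r1 (edgeR adjusted p = 0.566), TGFB1 r1 (0.371) or TGFB1 r2 (0.0892), and also with DESeq2, without a filter on low counts, without the replicate term and outside cluster 3.

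In TGFBRi 2 of 32 members were called in drug-susceptible cells, against 2.81% of genes, ABCB5 among them (0.83, SE 0.11, edgeR adjusted p = 2.44e-05). Both of these calls were lost without the replicate term. In PI3Ki 2 of 32 were called, against 12.1%. ABCB5 fell (-0.41, SE 0.12, edgeR adjusted p = 0.0208) and ABCA3 rose (0.87, SE 0.27, edgeR adjusted p = 0.0382). Both are weak calls. ABCA3 lost its call without any single library (edgeR adjusted p from 0.102 to 0.394), and ABCB5 without Control r1 (0.189), PI3Ki r1 (0.175) or PI3Ki r2 (0.132). Both were also lost without the replicate term, and ABCB5 with DESeq2. In primed cells TGFB1 called 0 of 19 members by edgeR, against 13.3% of 10930 genes, with 4 at an unadjusted p under 0.05. DESeq2 called 0 of 22, with 1 under 0.05. No share of all genes was taken for the unadjusted counts, and nothing is read from them. The Control libraries held only 94 and 165 primed cells (1341778 and 2484895 UMIs), so a count of 0 does not show that the members were stable.

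ABCB5 was also followed by cluster. Of 7 clusters with at least 20 cells in every library, both TGFBRi libraries lay above both Control libraries in 5, both TGFB1 libraries below both in 2 and both PI3Ki libraries below both in 3. Cluster 10, a primed cluster with as few as 22 cells in a library, had 3.22 and 2.09 CPM in Control. It had 5.61 and 4.87 CPM in TGFB1 and 12.3 and 4.27 in PI3Ki. These values rest on very few UMIs. All primed cells, cluster 4 included, held 4 and 5 ABCB5 UMIs in Control, 10 and 14 in TGFB1 and 3 and 4 in PI3Ki. No direction is read from cluster 10. Clusters 3 and 4 were among those with too few cells in some library to be included, the clusters share the same 2 libraries per treatment, and the counts were not compared by a test. In cluster 1, with at least 608 cells per library, ABCB5 had 3.75 and 3.56 CPM in Control, 4.99 and 7.35 in TGFBRi, 1.66 and 2.77 in TGFB1 and 1.76 and 2.94 in PI3Ki.

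Other genes of these pathways are given by the same edgeR test over all cells, in which TGFB1 called 16.3% of all genes higher and 12.7% lower. Nothing particular to these lists is read from their counts. Of the LXR and sterol efflux list 3 of 12 rose (NR1H2, which encodes the sterol receptor LXR-beta, RXRA and NPC2) and 3 fell (APOE, SCARB1 and SREBF2). In the glutathione list GCLM, a subunit of the first enzyme of glutathione synthesis, rose by 1.09 on the log2 scale (SE 0.064, edgeR adjusted p = 9.31e-12), GSTM3 rose and GSR fell, of 9 tested. TAP1 and TAP2, the ABC peptide transporters of antigen presentation, both fell (-0.35 and -0.51), while CFTR was too low to be tested. CAT, the peroxisomal catalase, fell, as 1 of 5 in the peroxisome list. Among the mitochondrial iron and heme genes HSCB rose and ALAS1 fell, and of 5 ribosome recycling genes PELO rose. In PI3Ki APOE rose by 0.75 (SE 0.069, edgeR adjusted p = 1.18e-07), with 3 of the 12 sterol genes higher and 1 lower, beside 5.83% and 6.83% of all genes. In TGFBRi APOE and GSTM3 were the only genes called in these lists. KCNJ8 and KCNJ11, channel partners of ABCC8 and ABCC9, were not tested in any comparison for low counts.

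At gene starts, ATAC-seq showed no called difference in the 22 members that could be tested. A peak lay within 500 bp of the start in all 12 libraries for 22 members, in some libraries for the rest of 29, and in none for 16. Of 20007 protein-coding genes 11673 had one in all 12 libraries and 6837 in none. These files give the peak caller's fold enrichment over local background and no read counts. By limma on the log2 fold enrichment with Benjamini-Hochberg adjustment over 11673 starts, 0 of 22 members were called in EGFR_High against Mix (0.36% of all starts were), 0 in NGFR-High (0.54%) and 0 in EGFR-NGFR-High (0.737%). At an unadjusted p under 0.05 there were 4, 2 and 5 members in that order, beside 11.7, 11.7 and 11.1% of all starts. With so few starts called at all, a count of 0 is close to the background. The 4 members named first for the WM989 states were outside this test. ABCG2 had a start peak in 4 libraries, ABCA1 in 2, and ABCB5 and ABCG5 in 0.

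ABCB8, a mitochondrial transporter, had the highest of the starts described here, with fold enrichments of 134, 133 and 133 in Mix. The EGFR_High libraries had 144, 173 and 162, the NGFR-High libraries 177, 190 and 169, and the EGFR-NGFR-High libraries 173, 170 and 166. All 9 marker-high libraries lay above the 3 Mix libraries, and the share of all starts that did so was not counted. The log2 differences of 0.32, 0.26 and 0.27 (SE 0.095 each) did not pass after adjustment by limma (adjusted p = 0.205, 0.307 and 0.272).

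ABCA9, a lipid transporter in a gene cluster with ABCA5, ABCA6, ABCA8 and ABCA10, had a start peak in all 9 marker-high libraries and in none of the 3 Mix libraries. Its fold enrichments were 4.27, 5.67 and 5.38 in EGFR_High, 9.54, 6.12 and 5.17 in NGFR-High and 10.7, 7.09 and 5.46 in EGFR-NGFR-High. It was outside the test, which needs a peak in every library, so the difference is given as a description. It was named after its values were seen, and the share of all starts with this split was not counted. The listed values are low, and whether Mix held a peak just under the caller's limit is not known. Its RNA was near 0 in both WM989 experiments (0.0639 and 0.0438 CPM). The sequence printed above is the 300 bases before this start. The start of ABCA1 had a low peak in 2 libraries only, NGFR-High 1 and 3 (3.58 and 5.17), though the body of the gene held peaks in every library.

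ABCB5 had no peak within 500 bp of its annotated start at position 20615667 of chromosome 7. All 12 libraries had one near the starts of its shorter transcripts, and the highest lay nearby at chr7:20648051-20648641, in an intron. Its fold enrichments were 18.8, 22.2 and 23.7 in Mix (21.6 ± 2.50, SD, n = 3) and 13.7, 16.5 and 13.2 in EGFR_High (14.5 ± 1.81). They were 16.7, 16.6 and 19.7 in NGFR-High (17.7 ± 1.78) and 17.0, 18.9 and 10.9 in EGFR-NGFR-High (15.6 ± 4.17). EGFR_High lay below Mix without overlap, and the other sorts overlapped Mix. This peak was chosen after its values were seen, so no test is given.

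**Figure D5:**
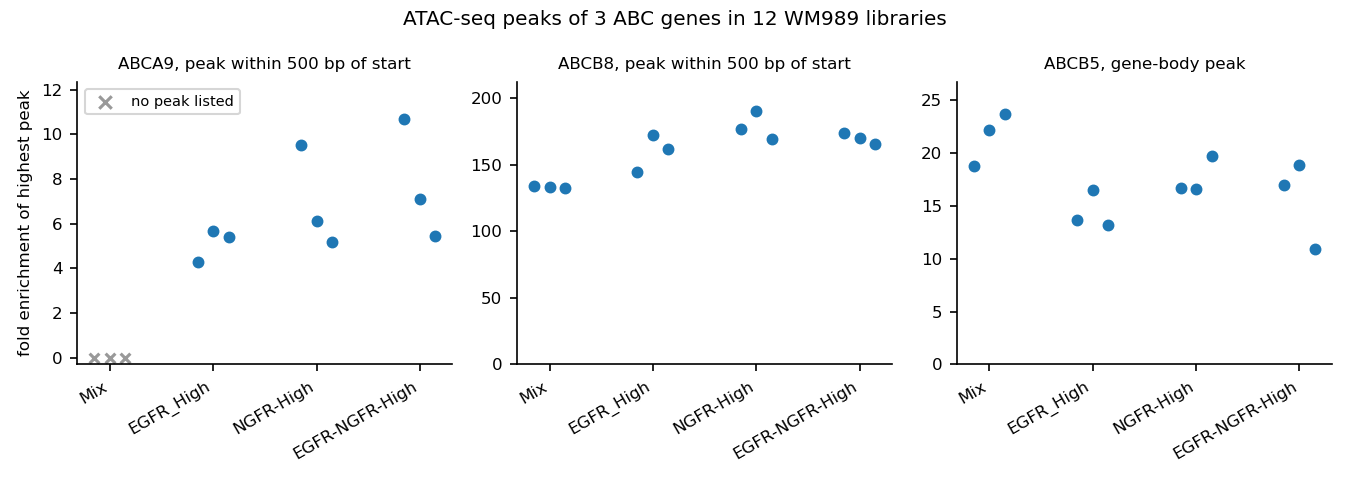
Fold enrichment over local background of the highest peak within 500 bp of the starts of ABCA9 and ABCB8 and of the gene-body peak of ABCB5, in 4 sorts of WM989 with 3 libraries each. Points are libraries, and crosses mark libraries with no peak listed at ABCA9, which are the 3 Mix libraries. ABCB8 is lowest in Mix at 133 to 134, and ABCB5 is highest in Mix at 18.8 to 23.7 with overlap.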

How the data were processed

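Single-cell RNA-seq (10x Genomics 3' libraries) was made of WM989 and WM983B cells, and OMNI-ATAC-seq of sorted WM989 cells. The counts, as the authors deposited them, are UMIs per gene and cell from Cell Ranger (version not given in the sources used here), with clusters, cell states, cell cycle phases and replicates in the authors' cell tables. For ATAC-seq the authors deposited MACS2 2.1.1.20160309 peaks per library on hg38 (Bowtie2 2.3.4.1, SAMtools 1.1), and the value used is the fold enrichment at the summit, a ratio over local background that carries no depth. The authors kept 12531, 1449 and 40021 cells, and how they treated doublets was not tested further. Median UMIs per cell were 45287 to 111820 per well in the first experiment, 66668 in WM983B and 13013 to 21720.5 per library in the treatment experiment.

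Counts were summed per well or library and state. Without replicated samples (both comparisons of states and that of clusters) CPM ratios are given with exact Poisson 95% intervals and a 2-fold limit, for genes with at least 1 CPM in either group. These intervals, and the floor of 3 counts for a gene with none, cover counting error only. Treatments were tested with edgeR 4.0.16 (R 4.3.3, quasi-likelihood test, TMM, filterByExpr, adjusted p under 0.05) on treatment and replicate over all 8 libraries. The replicate numbers mark wells whose cells were divided over the treatments, and same-numbered libraries deviated together in all 6 pairs of treatments (Pearson's r 0.143 to 0.607 over 9149 genes). On simulated data for TGFB1 over all cells, with 100 genes changed at each size, 99% of 1.5-fold and 100% of 2-fold changes were recovered, with 12 false calls among 18389 genes. The changed genes were drawn from those over 5 CPM, with the same spread for every gene and no replicate effect. Recovery of lower members, ABCA4, ABCA3, ABCG5, ABCA1 and ABCB5 among them, was not measured. ATAC-seq starts (GENCODE 44) were tested with limma 3.58.1 on the median-centred log2 fold enrichment of the highest peak within 500 bp, where all 12 libraries had one. Pattern mates of ABCB5 are the 5 genes with the highest r among those with at least 5 CPM in a cluster. Alternatives were DESeq2 1.42.0, other scaling and filters, fits without the replicate term or without single libraries, G1 cells alone, equal cell numbers and other peak windows.

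The members and lists were chosen with earlier results of these data known. Members described with full values are ABCB5, those past a threshold in a comparison, and the 2 highest of each experiment. Others were named after their values were seen, as contrasts to these or for the lines and wells. Of the 45 members 35 had a RefSeq promoter. ABCC6 has near-identical pseudogene copies. Counts cover all members and list genes tested, and the values of a few of them are not reported here.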

Additional observations from a re-analysis of the deposited data

Results flagged for a closer look

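ABCB10 and ABCG2 differed between the states in every WM989 well of the first experiment and not beyond counting error in WM983B. In WM989 the ABCB10 primed to drug-susceptible ratio was 0.517, lower in 8 of 8 wells, and in WM983B it was 1.02 (0.904 to 1.14, and 0.968 with TMM scaling), with 11.2 CPM in primed and 11.1 in drug-susceptible cells. ABCG2 had a ratio of 5.21 in WM989, higher in 8 of 8 wells, and of 0.851 in WM983B (0.671 to 1.078), with 2.62 CPM in primed and 3.08 in drug-susceptible cells. Both were singled out because the WM983B ratio lay on the other side of 1, and both of its intervals include 1. In the treatment experiment the WM989 differences were smaller in the Control libraries. There the ratio was 0.762 for ABCB10 (0.516 to 1.086, which includes 1) and 2.06 for ABCG2 (1.109 to 3.51). Over all its libraries ABCB10 was lower and ABCG2 higher in primed cells of 8 of 8. With 1 WM983B library the difference between the lines was not tested.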

How the results depend on the processing

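No called value changed direction under the alternatives run. Of the counts and main values 77 stayed within 1.5 times or within their error and 30 moved, and of the values of single members 208 kept their side of the threshold or their size, 53 lost their call and 16 moved. The TGFB1 count over all cells was 10, with 9 under no replicate block, 8 with DESeq2 and 7 to 10 with single libraries left out. In drug-susceptible cells the TGFB1 count of 5 became 3 with DESeq2, 2 under no replicate block, 2 outside cluster 3 and 3 to 4 with a library left out. The TGFBRi count of 2 became 0 under no replicate block in all cells and 0 in drug-susceptible cells, and in all cells 1 with G1 cells only and 1 to 2 with a library left out. Thus both TGFBRi calls rest on the replicate term (ABCB5 edgeR adjusted p = 0.207 without it in all cells). The PI3Ki count of 1 in all cells became 0 with DESeq2, 0 under no replicate block, 3 without a filter on low counts, 2 with equal cell numbers, 2 with G1 cells only and 0 to 1 with a library left out. In drug-susceptible cells the PI3Ki count of 2 became 0 with DESeq2, 0 under no replicate block and 0 to 1 with a library left out. A group left with 1 library was assumed to vary like the others.

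In each of the 3 ATAC-seq comparisons the count of 0 became 1, ABCA9, when missing peaks were set to 1. That value is fixed by filling the 3 Mix libraries and supports nothing. Same-numbered ATAC-seq libraries did not deviate together (Pearson's r from -0.0225 to 0.120), and with a replicate block the counts stayed at 0. Starts of any transcript, an alternative chosen after seeing the data, also gave 0. There ABCG2 came nearest, with log2 differences of 0.57 in EGFR_High and 0.51 in EGFR-NGFR-High (limma adjusted p = 0.0883 and 0.0878). With a minimum of 5 CPM the 4 members past 2-fold became 1 in WM989, 2 in the WM983B states and 2 in WM983B cluster 1. With G1 cells only, the ABCB5 ratio of WM983B cluster 1 was 8.25, ABCA6 passed 2-fold in both WM983B comparisons, higher in primed cells and lower in cluster 1, and ABCG5 fell short of 2-fold between the WM983B states (0.533) and in cluster 1 (1.70). Levels under 1 CPM rest on few UMIs, and depth is unknown for the ATAC-seq values.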

Other observations

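Some members differed between the cell cycle phases the authors called, within drug-susceptible cells, and these values carry no test. They were picked after their values were seen. The share of all genes that differed as regularly was not counted, so nothing about the members as a set is read from them. ABCC4 was lower in G2M than in G1 cells in every well and library of WM989, with 12.5 and 10.3 CPM in G1 and G2M of the first experiment (ratio 0.820, lower in 8 of 8 wells) and 14.5 and 12.3 CPM in the treatment experiment (0.847, lower in 8 of 8 libraries). In WM983B the ratio was 0.693. ABCF1 ran the other way, with 76.5 and 98.2 CPM in the first experiment (1.28, higher in 7 of 8 wells), 84.2 and 101 CPM in the treatment experiment (1.195, higher in 8 of 8 libraries) and a ratio of 1.04 in WM983B. ABCA13 was about 3-fold higher in G2M cells of WM989 (3.14, higher in 6 of 8 wells, and 3.03, higher in 8 of 8 libraries) at levels under 0.270 CPM, while in WM983B, where it reached 8.30 CPM in G1, the ratio was 1.17. ABCB5 showed no common direction, with ratios of 0.911, 1.11 and 0.913 in the first, treatment and WM983B experiments.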
